A study of Mus musculus with 4 samples.

Results

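The sites described here are the places in activated regulatory T (Treg) cells where IRF4 and JunB were both listed by chromatin immunoprecipitation-sequencing (ChIP-seq), BATF was not, and IRF4 was still listed, without a large fall in the list, when Junb was deleted. They were chosen by the peak lists themselves: an IRF4 peak of Junb-sufficient cells had to share at least 1 bp with a JunB peak and with an IRF4 peak of Junb-deficient cells, share none with a BATF peak, and stand less than 30 points lower in the Junb-deficient list. Of 31093 IRF4 peaks, 12518 overlapped JunB, 3558 of these overlapped no BATF peak, 2047 of those had a Junb-deficient counterpart, and 1873 met every condition (6.02% of all IRF4 peaks). The lists give no peak heights, so strength was read as place, the row of a peak as a percentage of its list, counted from the top. Since overlap and place chose the sites, these measures are given below as a description, and tests were kept to sequence and genomic position, which the choice did not use.

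CD4+CD25+ Treg cells from spleens of C57BL/6 mice were stimulated in culture with antibodies to CD3 and CD28 plus IL-2 and collected after 60 h. JunB, BATF and IRF4 were immunoprecipitated from Junb-sufficient cells and IRF4 from Junb-deficient cells, with 1 library in each of the 4 conditions. By the study's methods the mice were Junb fl/fl and Cd4Cre Junb fl/fl, but the sample labels give Foxp3cre JUNB+/+ and Foxp3cre JUNBFl/Fl. A Cd4-driven Cre would act in all T cells from the thymus on, and a Foxp3-driven one in Treg cells. Recorded totals ranged from 21127029 to 27399986 tags (aligned reads), and the lists from 13570 peaks for BATF to 31093 for IRF4 in Junb-sufficient cells. An antibody field in the labels exchanges BATF and IRF4 for the Junb-sufficient cells, and the sample titles and the study's list of libraries, which do not, were followed. With the exchange, the same rule found 166 sites. Each recomputed ratio that then lost its call or turned direction is given with its comparison, and ratios not recomputed are named as such. The absence of a BATF peak means that none was called in a library with fewer peaks, not that BATF was absent. The files hold no expression values, so the identity of the cells was not checked against marker genes here.

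JunB and BATF are AP-1 proteins, which bind DNA as pairs of basic leucine zipper subunits. IRF4 binds DNA poorly by itself and is known to be recruited beside other factors, to composite elements with AP-1 (AICE) or with ETS proteins (EICE), and at high levels to the interferon-stimulated response element (ISRE), a tandem of IRF half-sites. In Treg cells IRF4 is known for its part in the effector program.

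To show what the DNA at these sites looks like, a short stretch of the mm9 reference on the plus strand is printed for high placed sites with each motif, 5′ to 3′, with the motif in capitals. A site is named by the gene with the nearest protein-coding transcription start site (TSS). Motifs were matched letter by letter on both strands. The AP-1 consensus was TGACTCA with its reverse complement, the ISRE GAAANNGAAA and the EICE GGAANNGAAA, and AICE joined an IRF half-site to an AP-1 site. The RUNX consensus was TGTGGTT. The GATA consensus was AGATAAG. The ETS consensus was CCGGAAG, and as an alternative form ACAGGAAG. A match describes the letters of a window and not binding. An AICE match may contain an AP-1 match, and ISRE and EICE matches may share bases. The first 4 sites held ISRE matches, and that near Rgs1, a regulator of G protein signalling, held the match 3 times in tandem within these bases.
Rgs1 (chr1:146062505-146062605): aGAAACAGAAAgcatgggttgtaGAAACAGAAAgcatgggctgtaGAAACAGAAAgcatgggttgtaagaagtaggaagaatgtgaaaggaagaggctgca
Dcun1d3 (chr7:127015881-127015981): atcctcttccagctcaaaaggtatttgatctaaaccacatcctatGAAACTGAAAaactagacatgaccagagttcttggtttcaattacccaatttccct
Dad1 (chr14:54847048-54847148): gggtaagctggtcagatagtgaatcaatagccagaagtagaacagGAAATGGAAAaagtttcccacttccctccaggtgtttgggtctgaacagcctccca
Col15a1 (chr4:47285603-47285703): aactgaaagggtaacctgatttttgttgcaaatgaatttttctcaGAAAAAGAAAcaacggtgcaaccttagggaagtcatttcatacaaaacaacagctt
The next 4 held AP-1 matches, among them a site downstream of Icos, an inducible costimulator of T cells.
Jarid2 (chr13:44413073-44413173): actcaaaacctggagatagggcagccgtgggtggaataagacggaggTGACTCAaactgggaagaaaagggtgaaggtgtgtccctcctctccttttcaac
Tg (chr15:66630152-66630252): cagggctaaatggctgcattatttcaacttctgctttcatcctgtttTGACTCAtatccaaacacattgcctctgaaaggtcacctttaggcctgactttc
Icos (chr1:61107361-61107461): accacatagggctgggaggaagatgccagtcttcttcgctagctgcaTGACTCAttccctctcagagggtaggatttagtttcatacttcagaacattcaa
Nck2 (chr1:43531514-43531614): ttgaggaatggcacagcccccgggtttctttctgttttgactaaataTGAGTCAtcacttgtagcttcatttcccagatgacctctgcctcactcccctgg
RUNX, GATA and ETS matches are shown at the sites near Ift57, Cish, Tagap and Cnot6l, the last 3 of them within 1 kb of the TSS. The ETS sites were taken from promoter sites alone. A distal site near Fam107b with an ETS match stood higher, at a mean place of 7.48% over the JunB and both IRF4 lists. At Cish, which encodes a STAT5-induced inhibitor of cytokine signalling, and at Tagap, the match stood on the minus strand.
Ift57 (chr16:49775677-49775777): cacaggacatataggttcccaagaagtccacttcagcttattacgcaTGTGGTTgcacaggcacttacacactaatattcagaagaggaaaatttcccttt
Cish (chr9:107198145-107198245): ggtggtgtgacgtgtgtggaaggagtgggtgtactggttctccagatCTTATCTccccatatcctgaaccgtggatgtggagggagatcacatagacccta
Tagap (chr17:8118737-8118837): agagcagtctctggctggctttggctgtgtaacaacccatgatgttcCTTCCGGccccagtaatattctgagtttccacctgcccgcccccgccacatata
Cnot6l (chr5:96593166-96593266): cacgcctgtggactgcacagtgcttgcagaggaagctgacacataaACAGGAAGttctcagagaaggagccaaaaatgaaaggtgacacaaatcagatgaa
For comparison, 2 JunB-IRF4 sites without BATF that were not listed in Junb-deficient cells are shown with their AP-1 matches, followed by a site shared by JunB, BATF and IRF4 with its AICE match.
Vps54 (chr11:21120854-21120954): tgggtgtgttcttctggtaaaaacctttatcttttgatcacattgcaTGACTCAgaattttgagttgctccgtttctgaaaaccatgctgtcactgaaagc
Rbpj (chr5:53934769-53934869): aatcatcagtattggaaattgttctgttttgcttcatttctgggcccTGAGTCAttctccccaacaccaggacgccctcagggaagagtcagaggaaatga
Enpp6 (chr8:48026800-48026900): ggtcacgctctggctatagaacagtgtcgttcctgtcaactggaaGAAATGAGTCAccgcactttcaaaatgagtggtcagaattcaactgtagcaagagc

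The kept sites were of middling strength. Their median place in the Junb-sufficient IRF4 list was 39.9% (quartiles 24.9% and 59.5%), and in the JunB list 51.9% (quartiles 31.5% and 74.6%). In the Junb-deficient IRF4 list the median place was 36.8% (quartiles 20.6% and 57.6%). Sites where JunB, BATF and IRF4 overlapped and that were kept by the same limit (triple sites, n = 6589) stood far higher, at medians of 13.2%, 18.5% and 15.8% in the same lists. With the Junb-sufficient IRF4 list cut into 10 equal parts, the first part held 95 of the 1873 sites, the third held the most, 309, and the last held 60.

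Place changed by up to 10 points either way at 934 of the 1873 sites (49.9%), while 538 rose by more than that and 401 fell by 10 to 30 points. The change from Junb-sufficient to Junb-deficient cells had a median of -1.75 points, where a negative value means a rise in the list, with quartiles of -12.2 and 8.20. In all, 1044 rose by any amount (55.7%). The rule limits falls alone, so rises ran as far as -77.8 points. Just inside the limit were the sites near Folr4, with a fall of 29.83 points, and near Gnaq, with 29.87, and just outside were those near 4930506M07Rik, with 30.14, and Atl2 and Nr2f1, with 30.15 each.

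**Figure D1:**
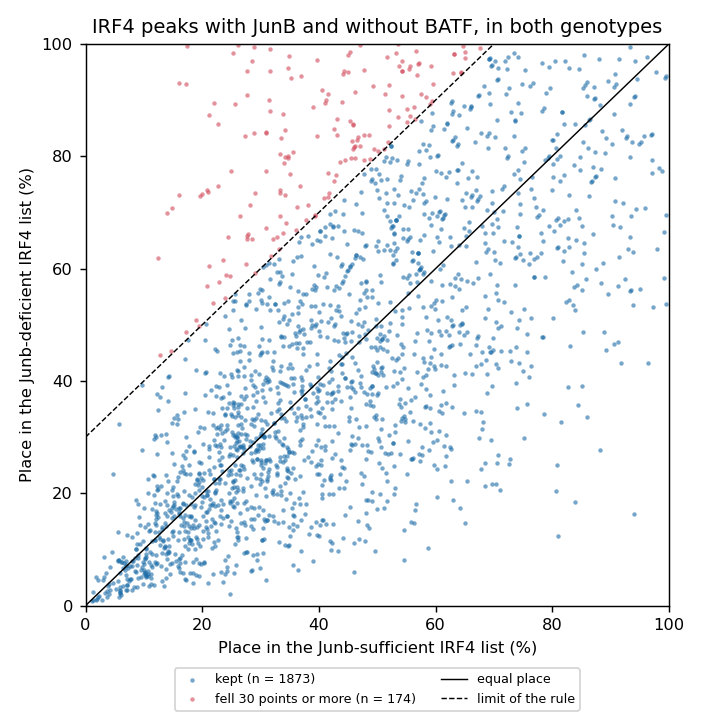
Place of each IRF4 peak that overlapped JunB and no BATF in the Junb-sufficient list (x axis, % of list) and the Junb-deficient list (y axis, % of list), with 0 at the top of a list. Blue points are the 1873 kept sites and red points the 174 that fell by 30 points or more, the solid line marks equal place, and most blue points gather below 60% on both axes.

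Among the 3558 JunB-IRF4 sites without BATF, 52.6% were kept (exact binomial, Clopper-Pearson, 95% interval 51.0 to 54.3), 4.89% fell by the limit or more and 42.5% had no Junb-deficient peak (missing sites, n = 1511). By the same rule, 59.6% of all 31093 IRF4 peaks were kept, 40.3% overlapped JunB and 61.3% overlapped no BATF, and no more is read from these shares because the rule used them. The share of IRF4 peaks with a Junb-deficient counterpart fell from 95% in the first of these 10 parts to 32.1% in the last. Missing sites stood lower in the IRF4 list than kept ones, at a median of 55.9%, and at a like place in the JunB list, 49.6%. Of triple sites, 73.5% were kept. Whether strength accounts for the difference between these shares was not tested.

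The JunB and IRF4 peaks of the kept sites were closely aligned. Each of the 1873 had its own JunB peak and its own Junb-deficient IRF4 peak, and the JunB centre lay a median of 35 bp from the IRF4 centre (84.2% within 100 bp). The Junb-deficient IRF4 centre lay a median of 27 bp from the Junb-sufficient one (85.3% within 100 bp). Their nearest BATF peaks were mostly far off, at a median of 22473 bp between centres, with 72 sites (3.84%) within 2 kb and 520 (27.8%) within 10 kb.

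Most kept sites lay away from promoters, yet promoters were more common among them than among triple or missing sites. Within 1 kb of a protein-coding TSS stood 317 of the 1873 (16.9%, 95% interval 15.3 to 18.7), compared with 6.37% of triple sites (odds ratio 2.99, 95% interval 2.55 to 3.51, adjusted exact p = 2.48e-39) and 6.88% of missing sites (2.76, 2.17 to 3.51, adjusted exact p = 1.23e-18). Sites of IRF4 without JunB or BATF that were kept (IRF4-alone, n = 8057) stood at promoters more often, in 33.2% (0.411, 0.360 to 0.468, adjusted exact p = 2.37e-45). All IRF4 peaks together had 16.7%, a share close to that of the kept sites. Introns outside promoters held 751 kept sites (40.1%), exons 32 (1.71%), and intergenic sequence 773 (41.3%). Brackets give the odds ratio of kept sites against the other group, its 95% interval and the adjusted p, here and below. The tests are two-sided Fisher's exact tests over peaks, adjusted by Benjamini-Hochberg over 66 tests, and they compare lists from 1 library each, since peaks are not replicates.

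Within 20 strata of like place in the Junb-sufficient IRF4 list, the promoter odds ratio was 2.60 against triple sites and 2.82 against missing sites. It thus kept its direction among peaks of like place in that list. The strata did not match place in the JunB or Junb-deficient list. With the antibodies exchanged it was 1.34 (adjusted exact p = 0.818) and 1.28 (adjusted exact p = 0.818), and 0.545 against IRF4-alone sites (adjusted exact p = 0.519). In the first 50% of the lists that against missing sites was 1.64 (adjusted exact p = 0.0763).

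**Figure D2:**
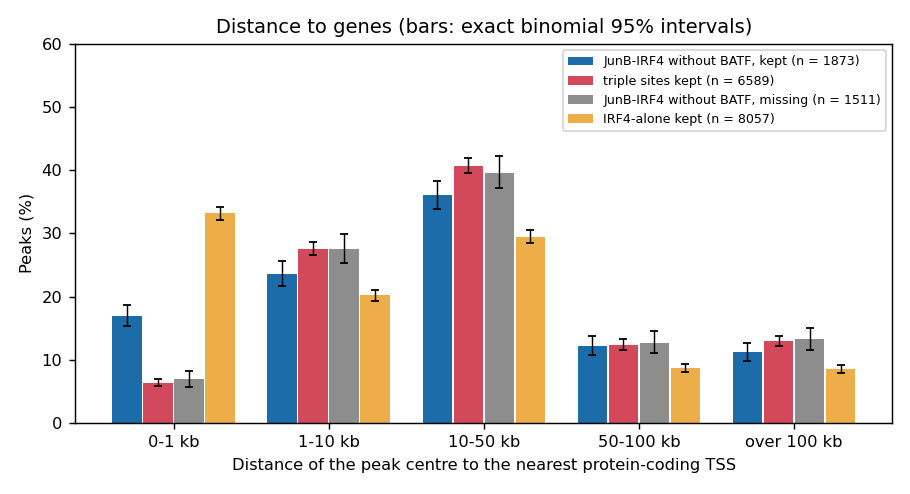
Share of peaks (%) by distance of the peak centre to the nearest protein-coding TSS, with exact binomial 95% intervals, for kept JunB-IRF4 sites without BATF (blue), triple sites kept (red), JunB-IRF4 sites without BATF that were missing (grey) and IRF4-alone sites kept (yellow). Within 1 kb the blue bar, 16.9%, stands between 6.37% for triple and 33.2% for IRF4-alone sites.

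The high placed promoter sites belonged to genes of varied function. Lrig1, a membrane protein known to restrain growth factor receptors, had a site at chr6:94630920-94631532, 602 bp upstream of its TSS, at place 573 of the Junb-sufficient IRF4 list, 1694 of the JunB list and 312 of the Junb-deficient list. A site at chr15:66629910-66630522 lay 96 bp from a TSS annotated to Tg, at places 366, 2315 and 260 in the same order, and also inside the gene Sla, an adaptor that dampens T cell receptor signalling. The site of Cish at chr9:107197867-107198479, 184 bp upstream, stood at places 1841, 6839 and 802. All 3 stood higher in the Junb-deficient list than in the Junb-sufficient one.

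Other high placed promoter sites were chosen after their values were seen. In mean place over the 3 lists, those of Gpr171 and Nub1, at 10.2% and 10.5%, stood just above that of Cish, at 10.6%. Those of Cd2, a T cell adhesion receptor, and Cd200r1, an inhibitory receptor, followed at 11.5% and 11.8%. Promoter sites differed in sequence from the 1556 distal ones: ETS matches were in 18.6% against 7.78%, SP/KLF matches (GGGGCGGG, bound by zinc finger factors of GC-rich promoters) in 15.5% against 1.22%, RUNX in 3.79% against 17.1%, ISRE in 6.94% against 13.5% and AP-1 in 12.9% against 23.7%. These differences within the kept sites were not tested.

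AP-1 motifs were less common at the kept sites than at the sites they most resemble. Within 100 bp of the IRF4 peak centre, 410 of 1873 held the AP-1 consensus (21.9%, 95% interval 20.0 to 23.8), compared with 36.0% of triple sites (odds ratio 0.499, 0.441 to 0.564, adjusted exact p = 8.42e-31) and 45.1% of missing sites (0.341, 0.293 to 0.397, adjusted exact p = 2.37e-45). They still held it more often than IRF4-alone sites, with 9.31% (2.73, 2.38 to 3.12, adjusted exact p = 1.21e-44), and than 1803 windows 5 kb downstream of them and clear of peaks, with 2.88%. Of all IRF4 peaks, 26.4% held it. The matches gathered at the centre: 331 of the 1873 sites had one within 50 bp (17.7%).

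The AP-1 differences had the same direction within strata of like place (0.542 against triple and 0.342 against missing sites) and among distal peaks (0.542 and 0.355). With the antibodies exchanged they were 0.639 (adjusted exact p = 0.123) and 0.885 (adjusted exact p = 0.870), and 2.03 against IRF4-alone sites (adjusted exact p = 0.0893).

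Composite AICE motifs, in which an IRF half-site stands beside an AP-1 site, were less common at kept sites than at triple or missing sites. They were in 35 kept sites (1.87%), against 6.78% of triple sites (0.262, 0.179 to 0.371, adjusted exact p = 1.58e-18) and 3.71% of missing sites (0.495, 0.313 to 0.773, adjusted exact p = 0.00257), with 3.52% among all IRF4 peaks. IRF4-alone sites held them in 1.19% (1.58, 1.04 to 2.36, adjusted exact p = 0.0424). Among distal peaks that ratio was 1.28 (adjusted exact p = 0.474), and it was not recomputed with the antibodies exchanged. EICE motifs were in 72 (3.84%), and their odds ratios of 1.11 (0.835 to 1.46, adjusted exact p = 0.500) and 1.14 (0.783 to 1.68, adjusted exact p = 0.543) did not pass the threshold. In the first 50% of the lists the AICE ratio against missing sites was 0.521 (adjusted exact p = 0.181). With the antibodies exchanged the AICE ratios were 0.506 against triple sites (adjusted exact p = 0.519) and 0.876 against missing sites (adjusted exact p = 1.00).

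ISRE motifs separated the kept from the missing sites. They were in 232 of the 1873 kept sites (12.4%, 95% interval 10.9 to 14.0) and in 67 of the 1511 missing sites (4.43%), an odds ratio of 3.05 (2.29 to 4.10, adjusted exact p = 3.51e-16). The share among triple sites was 11.0% (1.15, 0.977 to 1.35, adjusted exact p = 0.137) and among IRF4-alone sites 11.7% (1.07, 0.913 to 1.25, adjusted exact p = 0.476), and neither difference passed the threshold. All IRF4 peaks held the motif in 9.49%, and windows 5 kb downstream of the kept sites in 2.44%. Within strata of like place the ratio against missing sites was 2.89 (2.16 to 3.86).

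The 2 motifs mostly stood at different sites, in the kept sites as in the other groups. AP-1 and ISRE occurred together in 30 kept sites (1.60%), AP-1 without ISRE in 380 (20.3%), ISRE without AP-1 in 202 (10.8%) and neither in 1261 (67.3%). They occurred together in 2.50% of triple, 1.39% of missing and 0.757% of IRF4-alone sites. Their occurrence together was not tested. With the antibodies exchanged, the ISRE ratio against missing sites was 2.50 (adjusted exact p = 0.0893), and among distal peaks the ratio against triple sites was 1.27 (adjusted exact p = 0.0160).

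**Figure D3:**
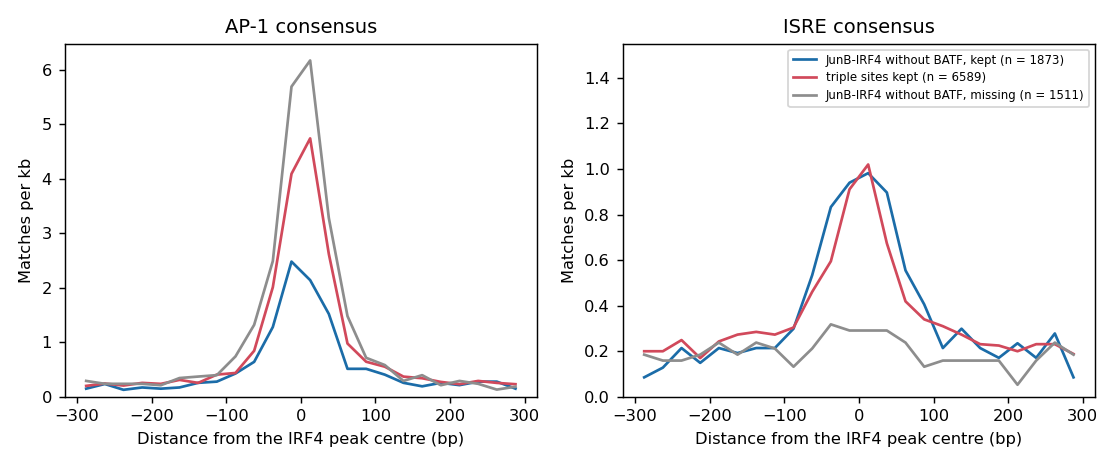
Matches per kb (y axes, separate scales) to the AP-1 (left) and ISRE (right) consensus by distance from the IRF4 peak centre (x axes, bp) at kept JunB-IRF4 sites without BATF (blue, n = 1873), triple sites kept (red) and JunB-IRF4 sites without BATF that were missing (grey). AP-1 matches peak at the centre in all 3 groups and least in the kept sites, whereas ISRE matches peak at the centre of kept and triple sites and barely at missing ones.

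RUNX, GATA and ETS motifs were also more common at kept than at missing sites, but with the antibodies exchanged the GATA and ETS ratios turned direction. RUNX proteins work with the Treg cell factor Foxp3, and their motif was in 278 kept sites (14.8%) and 9.40% of missing sites (1.68, 1.35 to 2.10, adjusted exact p = 4.85e-06). The GATA motif, bound in T cells by GATA3, was in 139 (7.42%) against 4.10% (1.87, 1.37 to 2.59, adjusted exact p = 1.27e-04). The ETS motif was in 180 (9.61%) against 7.08% (1.39, 1.08 to 1.81, adjusted exact p = 0.0162). Among all IRF4 peaks the shares were 11.1%, 4.47% and 8.69%, in this order. The exchange gave ratios of 2.47 for RUNX (adjusted exact p = 0.0733), 0.611 for GATA (adjusted exact p = 0.818) and 0.975 for ETS (adjusted exact p = 1.00). In the first 50% of the lists the ratio was 1.70 for GATA (adjusted exact p = 0.113) and 1.08 for ETS (adjusted exact p = 0.911).

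Against triple sites, ETS was higher (1.76, adjusted exact p = 2.46e-08) and GATA was higher (1.40, adjusted exact p = 0.00356), while RUNX was in 13.5% of triple sites (1.12, adjusted exact p = 0.194). The ETS ratio against missing sites was 1.25 among distal peaks (adjusted exact p = 0.265), and the GATA ratio against triple sites was 1.27 within strata of like place (95% interval 1.00 to 1.61) and 1.33 within 50 bp of the centre (adjusted exact p = 0.0585). In the first 50% of the lists ETS was at 1.40 (adjusted exact p = 0.149) against triple sites and GATA, still higher, no longer passed (adjusted exact p = 0.0750), and the exchange turned both, to 0.821 (adjusted exact p = 0.943) and 0.456 (adjusted exact p = 0.597). Among distal peaks the RUNX ratio against triple sites was 1.30 (adjusted exact p = 0.00485). Against IRF4-alone sites ETS was lower, with 13.2% there (0.697, adjusted exact p = 3.72e-05). GATA (1.70, adjusted exact p = 2.21e-06) and RUNX (1.32, adjusted exact p = 5.31e-04) were higher. Among distal peaks these ratios were 0.941 (adjusted exact p = 0.756), 1.40 (adjusted exact p = 0.0108) and 1.18 (adjusted exact p = 0.0867). They were not recomputed with the antibodies exchanged.

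Motifs of general promoter and looping factors were more common at kept than at triple sites, though the kept sites' shares were close to those of all IRF4 peaks. The motif of CTCF, which shapes chromatin loops (CAGGGGGC, TAGGGGGC, CAGGTGGC or TAGGTGGC), was in 88 (4.70%) against 1.79% of triple sites (2.70, 2.02 to 3.61, adjusted exact p = 9.28e-11) and 4.10% of missing sites (1.15, 0.817 to 1.63, adjusted exact p = 0.503), with 4.22% among all IRF4 peaks. SP/KLF was in 68 (3.63%) against 0.986% of triple sites (3.78, adjusted exact p = 1.11e-12) and 1.32% of missing sites (2.81, adjusted exact p = 4.61e-05), and in 3.48% of all. IRF4-alone sites held it more often, in 7.05% (0.497, 0.378 to 0.643, adjusted exact p = 3.23e-08). Among distal peaks the SP/KLF ratios were 1.68 against triple sites (adjusted exact p = 0.133) and 1.33 against missing sites (adjusted exact p = 0.640). Against IRF4-alone sites the distal ratio was 0.542 (adjusted exact p = 0.0396). With centres within 100 bp the SP/KLF ratio against missing sites was 1.43 (adjusted exact p = 0.217), and in the first 50% of the lists it was 1.54 (adjusted exact p = 0.527) and that of CTCF against triple sites 1.37 (adjusted exact p = 0.451). With the antibodies exchanged CTCF against triple sites was at 1.13 (adjusted exact p = 0.943). SP/KLF was then at 1.95 against triple sites (adjusted exact p = 0.604) and 4.23 against missing sites (adjusted exact p = 0.519). The NF-kB motif (GGGAATTTC, GGGACTTTC or GGAATTTCC) was in 24 kept sites (1.28%) and 6 missing sites (0.397%), a ratio of 3.25 (1.29 to 9.76, adjusted exact p = 0.0158), with 1.16% among all. Neither the NF-kB ratio nor the SP/KLF ratio against IRF4-alone sites was recomputed with the antibodies exchanged.

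The other motifs were found in few kept sites, 6.51% at most. The CRE (TGACGTCA), bound by CREB and ATF proteins, was in 18 (0.961%) against 0.199% of missing sites (4.88, 1.42 to 25.9, adjusted exact p = 0.0126), which rests on 3 missing sites, with 0.827% among all IRF4 peaks. Among distal peaks this CRE ratio was 4.54 (0.966 to 42.7, adjusted exact p = 0.0938). NFAT (TGGAAAA) was in 6.51% and TCF (CCTTTGA) in 4.48%, with 5.02% and 4.67% among all. NFAT was in 4.46% of IRF4-alone sites (1.49, 1.20 to 1.85, adjusted exact p = 7.11e-04). Neither the CRE ratio nor the NFAT ratio was recomputed with the antibodies exchanged. The promoter motifs NRF1 (GCGCATGC), NFY (AGCCAATC or AGCCAATG) and YY1 (AAGATGGC) were in 0.961%, 1.76% and 1.49%, with 0.740%, 1.90% and 1.32% among all. None of the 16 motifs searched was found in 620 kept sites (33.1%).

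**Figure D4:**
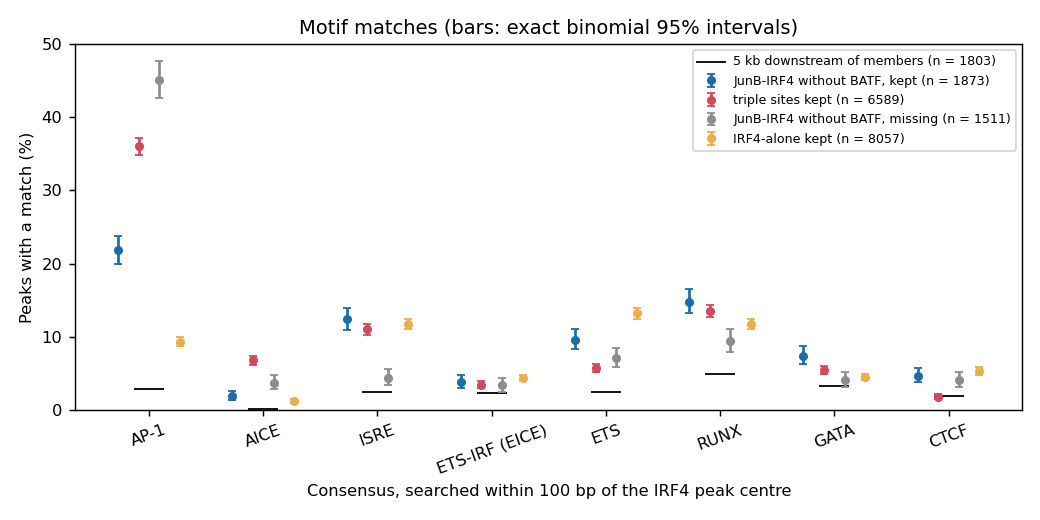
Share of peaks (%) with at least 1 match to each consensus within 100 bp of the IRF4 peak centre, with exact binomial 95% intervals, for kept JunB-IRF4 sites without BATF (blue), triple sites kept (red), JunB-IRF4 sites without BATF that were missing (grey) and IRF4-alone sites kept (yellow). Black lines mark windows 5 kb downstream of the kept sites. The blue AP-1 share, 21.9%, stands between 9.31% and 45.1%, and the grey ISRE share, 4.43%, is the lowest of the 4 groups.

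Within the kept sites, motif content also varied with the change of place, which is given as a description because the change chose the sites. AP-1 matches were in 13.8% of the 538 sites that rose by over 10 points, 20.9% of the 234 within 2 points and 34.7% of the 401 that fell by 10 to 30 points. The 174 sites that fell further held them in 47.7%. ISRE matches were in 14.7%, 14.1% and 7.23% of the same 3 groups of kept sites, and in 10.9% of the 174 that fell further. GATA matches were in 11.2%, 4.70% and 5.49% of the kept groups. Strength differed between these groups, with a median place in the Junb-sufficient list of 55.8% for those that rose by over 10 points and 26.8% for those within 2 points, and its part was not tested.

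Kept sites with AP-1 had a median change of 3.59 points, a fall (quartiles -5.94 and 15.0, n = 410). Those with ISRE had a median of -4.29 (quartiles -14.6 and 2.08, n = 232), those with GATA -6.50 (quartiles -21.8 and 2.67, n = 139) and those with RUNX -3.43 (quartiles -14.1 and 6.11, n = 278). The quartiles of all 4 overlapped.

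**Figure D5:**
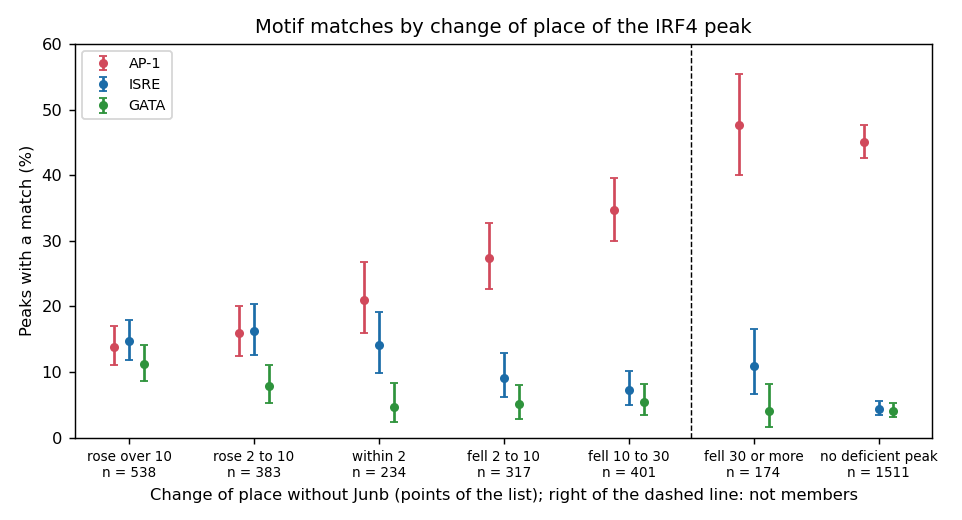
Share of peaks (%) with an AP-1 (red), ISRE (blue) or GATA (green) match by change of place without Junb in points of the list (x axis), with exact binomial 95% intervals. From left to right the AP-1 share goes from 13.8% to 34.7% over the kept sites and stands at 47.7% and 45.1% in those right of the dashed line, which were not kept.

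The highest placed kept sites lay near genes of several kinds. The 10 with the lowest mean place over the JunB and both IRF4 lists were assigned to Gm10722, 1700090G07Rik, Jarid2, Lrig1, Tg, Smarce1, Ift57, Icos, A1bg and Nck2. That near Gm10722, at chr9:3001829-3002441, stood at place 6 of the Junb-sufficient IRF4 list, 12 of the JunB list and 6 of the Junb-deficient list. It lay in a stretch at the end of the chromosome that holds peaks among the first rows of every list, and none of the 66 tests changed its call without that stretch.

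Of the other 9, Jarid2 encodes a partner of Polycomb repressive complex 2, and its site at chr13:44412813-44413425, 412 kb upstream, stood at places 392, 923 and 727. Smarce1 encodes a subunit of the BAF chromatin remodelling complex, and its site at chr11:99065044-99065656, 9.41 kb downstream of the TSS, stood at places 418, 2631 and 279. The intronic site of Nck2, an adaptor of T cell receptor signalling, at chr1:43531246-43531858, stood at places 1318, 857 and 1998. The sites near 1700090G07Rik, Ift57 and A1bg lay 64.5 kb, 64.8 kb and 488 kb from the TSS, and their mean places were 1.81%, 3.92% and 4.31%. None of the 10 changed by more than 3.20 points.

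Among the sites with ISRE printed above, that near Rgs1 at chr1:146062306-146062918 stood at places 2432, 1090 and 1384, with its nearest BATF centre 18.3 kb away. The site in an intron of Dcun1d3 stood at places 888, 4128 and 295. That nearest to Dad1, at chr14:54846870-54847482, stood at places 600, 4802 and 338 and held GATA and TCF (CCTTTGA) matches as well. The intronic site of Col15a1 stood at places 1820, 4676 and 955. All 4 stood higher in the Junb-deficient IRF4 list, and 3 stood lower in the JunB list than in either IRF4 list, while that near Rgs1 stood highest in the JunB list.

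Near each gene of the effector Treg program that the study examined, triple sites outnumbered the kept sites without BATF, as they did over all peaks. Of these 11 genes, 9 had a kept site within 100 kb of a TSS. There were 2 for Icos, 1 each for Ctla4, Tigit, Maf, Gzmb, Gata3 and Nt5e, 2 for Prdm1, 3 for Fgl2, and none for Klrg1 or Il1rl1. These genes had from 3 (Klrg1) to 17 (Icos and Ctla4) IRF4 peaks of any kind within 100 kb. The share of all genes with a kept site by this rule was not computed. The triple sites kept near the same genes numbered 9 for Icos, 6 for Ctla4, 7 for Tigit and 5 for Prdm1. Missing sites numbered 3 for Icos, 2 for Ctla4 and 1 each for Gzmb, Nt5e and Il1rl1. Gzmb and Nt5e each also had 1 that fell by the limit or more, and the remaining genes had no missing site. By ChIP followed by PCR, the study reported less IRF4 binding near Icos, Ctla4, Gzmb and Maf in Junb-deficient cells. Near Prdm1 and Gata3 it reported IRF4 binding to be unaffected. Its PCR regions were its own choice and were not matched to the kept sites. The one for Ctla4 lay nearer to the TSS than the kept site counted for that gene, and was tested after a longer stimulation. The main Icos site at chr1:61107072-61107684, 72.6 kb downstream of the TSS, stood at places 579, 1725 and 1469. The second, at chr1:61011565-61012177 between Ctla4 and Icos, stood at places 11149, 14806 and 14100, and was the 1 counted for Ctla4, which encodes an inhibitory receptor central to Treg suppression.

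For the other genes the best placed site was often that of a neighbour. The site counted for Prdm1, which encodes the effector regulator Blimp-1, lay in an intron nearest to Atg5 at chr10:44080373-44080985, and stood at places 5236, 3971 and 4118. The site of Maf, 20.8 kb upstream with an ISRE match, fell by 16.61 points from place 4878 to 9376. The best placed of the 3 sites of Fgl2, a secreted suppressor molecule, 3.55 kb upstream, rose from place 6180 to 2131. Of the others, that at 30.3 kb changed by -5.24 points and that at 46.0 kb fell by 24.94. The site of Gzmb, a cytotoxic protease, rose from place 7347 to 4508. The site counted for Gata3, 80.4 kb upstream in an intron and nearest to Taf3, rose by the most of these, from place 21663 to 6261.

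In every gene list the share of genes with a kept site was above that of all genes, ribosomal genes and genes of other cell types included, and no enrichment was tested. A kept site had its nearest TSS within 100 kb at 1476 of 22238 protein-coding genes (6.64%), and within 1 kb at 316 (1.42%), with a median of 0 sites a gene in every list and over all genes. The share was 12 of 25 for effector and lineage regulators (48.0%), 12 of 30 for proximal T cell receptor signalling (40.0%), 11 of 27 for cytokine receptors, STATs and SOCS (40.7%) and 6 of 15 for the resting program (40.0%). It was 5 of 25 for effector Treg molecules (20.0%), 5 of 18 for the BCL2 family and death receptors (27.8%), 5 of 30 for interferon-stimulated genes (16.7%), 5 of 36 for ribosomal proteins (13.9%), 3 of 23 for AP-1 and IRF genes (13.0%), 2 of 19 for Myc, cyclins and CDK inhibitors (10.5%) and 2 of 25 for genes of other cell types (8.00%). Icos, Fgl2 and Gzmb of the effector list are also among the study's 11 genes, so the groups are not independent. Triple sites were assigned to large shares of the same lists, 19 of 25 regulators, 21 of 30 genes of receptor signalling and 17 of 27 of the cytokine list, against 16.9% of all genes. With any IRF4 peak, the shares were 100% for the regulators, 93.3% for receptor signalling and 52.5% for all genes.

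The regulators with the highest placed sites were Rora, Ikzf1, Tox and Bach2, transcription factors of lymphocyte differentiation, with mean places of 13.9%, 19.7%, 20.0% and 21.1%. Prkcq, the kinase that links the T cell receptor to NF-kB, had 3 sites, the best 29.1 kb upstream at chr2:11064364-11064976 and at places 1749, 1677 and 2372. Ubash3a, a restrainer of receptor signalling, followed at a mean place of 12.7%. Among cytokine genes Cish was followed by Il10ra, Il12rb2 and Il6st, at 12.5%, 13.2% and 14.7%. Il6st, the shared signal transducer of the IL-6 family, had 4 sites.

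Ccr7 and Foxp1, of the resting program, stood at 12.7% and 16.7%, and Klf2, a factor of T cell trafficking, at 31.6%. Cflar and Tnfrsf1b led the death-related list at 11.4% and 11.8%, followed by Bcl2l11 and Bcl2l1 at 28.0% and 28.1%. The effector molecules after Icos were Pdcd1, Fgl2 and Gzmb, at 31.3%, 36.7% and 38.0%. Fos, Irf2 and Irf4 itself stood at 20.1%, 26.8% and 42.7%, so that a kept site lay 92.9 kb from the TSS of the gene of the immunoprecipitated factor, in an intron of Exoc2.

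Of the 5 kept sites near interferon-stimulated genes, 4 held an ISRE match, beside 12.4% of all kept sites, and the 3 in the best places are described. Gbp2, a guanylate-binding protein of antimicrobial defence, had its site 33 bp from the TSS at chr3:142283227-142283839, with AP-1 and ISRE matches, at places 3489, 16619 and 1632. Isg20, an antiviral exonuclease, had its site 23 bp from the TSS at chr7:86058538-86059150, likewise with both motifs, at places 6480, 10169 and 5728. The site of Psmb9, an immunoproteasome subunit, held an ISRE match at 3.52 kb and changed by -33.58 points. All 3 stood higher in the Junb-deficient list.

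Promoter sites were listed at genes of receptor signalling, Cd3g and Ptpn22 among them, at 3 of the cytokine list (Stat3, Socs3 and Cish), 4 ribosomal genes (Rpl3, Rpl5, Rpl6 and Rpl22), 2 interferon-stimulated genes (Isg20 and Gbp2), and Pdcd1 and Bcl2l1. The best site of the ribosomal list was that near Rpl11, at a mean place of 40.2%, followed by Rpl5, Rpl6 and Rpl3 at 43.8%, 46.2% and 51.1%. For other cell types the 2 sites lay in Pax5 and Ebf1, B cell factors, at 41.4% and 70.7%, and for the cell cycle list in Ccnd3, at 63.0%, and in Rb1, at 64.0%.

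A few genes gathered several kept sites. Inpp4b, which encodes a phosphatase of phosphoinositide signalling, had 6 among 37 IRF4 peaks assigned to it. The next genes, with 5 each, were Myc, Rapgef6, Runx1, Tox and Trps1, among 58, 10, 26, 29 and 38 IRF4 peaks in this order. Of all IRF4 peaks, 6.02% were kept sites, and no gathering was tested. Those of Rapgef6, an activator of Rap GTPases, were 5 of only 10 IRF4 peaks, all within 28.0 kb of a TSS, and those of Runx1 all lay in its introns. The 5 nearest to Myc lay up to 846 kb downstream, beyond 100 kb in every case, and the best of them, at chr15:62664575-62665187, stood at places 999, 4368 and 2516. In all, 1663 of the 1873 sites (88.8%) were within 100 kb of a protein-coding TSS, where 1323 genes had 1 site and 126 had 2.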

How the data were processed

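ChIP-seq peak lists of 4 libraries, 1 per condition, were analysed. Reads had been mapped to mm9 by the authors with Bowtie2, and HOMER had been run once per library, without a control library in the command on record, at a false discovery rate of 0.001, at least 4-fold over the surrounding region and at most 1 tag per bp. The version is HOMER 4.8 in the submitters' processing notes. The deposited lists hold positions and a score of 1 for every peak, so the order of the rows was read as strength. The authors state that ChIP-seq was repeated, and 1 list per condition was used here. After the limit of 1 tag per bp, 16.0 M (JunB) to 17.9 M (IRF4, Junb-deficient) tags remained. The JunB peaks are 151 bp wide and the others 605 or 613 bp.

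Positions were counted from 1, and all peaks lay within the mm9 chromosome lengths. TSSs and gene structure came from GENCODE vM1 on the same assembly (69976 protein-coding TSS positions). Consensus motifs were matched exactly on both strands within 100 bp of the IRF4 peak centre. Shares were compared by two-sided Fisher's exact tests over peaks, with exact intervals and Benjamini-Hochberg adjustment over 66 tests (22 features against 3 groups). Mantel-Haenszel odds ratios were taken over 20 strata of place in the Junb-sufficient IRF4 list. No test between genotypes was possible with 1 library each. Intervals cover counting error only. The alternatives were other place limits (10 and 50 points), the first 50% of the lists, centres within 100 bp, no BATF centre within 1000 bp, the exchanged antibodies, windows of 50 and 150 bp either side or around JunB centres, and promoters of 500 and 2500 bp or of all genes. Distal peaks alone and leaving out the region at the end of chromosome 9 were chosen after seeing the data. So was running the CTCF, GATA and SP/KLF comparisons with triple and missing sites under the alternatives. The same holds for the IRF4-alone comparisons, which were rerun for promoters, AP-1 and ISRE.

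The sites, motifs and gene lists were chosen with earlier results of these data known. Genes were named by rule: the 10 sites with the lowest mean place, those nearest the limit, the study's 11 genes, the genes with the most sites, and up to 4 genes a list, in order of mean place, some of which are not reported here. The top sites with each motif were chosen by mean place, but the ETS sites were taken from promoter sites alone. The GATA site shown was not the first placed, which was printed for its ISRE match. Python 3.11.15, NumPy 2.4.6, SciPy 1.17.1, pysam 0.24.0 and matplotlib 3.10.9 were used, and the procedures were tested on simulated data.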

Additional observations from a re-analysis of the deposited data

How the results depend on the processing

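Of the recomputed values, 234 kept their direction and side of the threshold, 28 kept their direction but no longer passed, 3 passed newly, 11 turned direction and 2 counts of sites moved by over 1.5 times. None changed with the place limit at 10 or 50 points, windows of 150 bp either side, windows around JunB centres, the other promoter definitions, no BATF centre within 1000 bp, or without the region at the end of chromosome 9. The causes below were not tested. Values are odds ratios of kept sites against triple, missing or IRF4-alone sites.

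In the first 50% of the JunB and both IRF4 lists, 549 sites remained by the rule. There, the ratios against missing sites were 1.64 for promoters, 0.521 for AICE, 1.08 for ETS and 0.729 for CTCF, which turned direction. Against triple sites ETS was 1.40 and RUNX was 1.47, which passed newly (adjusted exact p = 0.00546), and ISRE against IRF4-alone sites was 0.889, turning direction.

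With the antibodies exchanged, the rule found 166 sites, and fewer sites make these tests weaker. Against triple sites the ratios were 1.34 for promoters, 0.639 for AP-1, 0.506 for AICE, 0.821 for ETS and 0.456 for GATA, the last 2 turning direction. Against missing sites they were 1.28 for promoters, 0.885 for AP-1, 0.876 for AICE, 2.50 for ISRE, 2.47 for RUNX, 0.975 for ETS and 0.611 for GATA, the last 2 again turning direction.

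With windows of 50 bp either side, EICE against missing sites was 0.963, turning direction, and ETS was 1.37 (adjusted exact p = 0.0830). Among distal peaks, ISRE (1.27) and RUNX (1.30) against triple sites passed newly and ETS against missing sites was 1.25. ISRE against IRF4-alone sites, which never passed, turned direction with centres within 100 bp (0.979), windows of 50 bp either side (0.994), strata of place (0.911) and distal peaks (0.890).

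No paired analysis was possible because each condition has 1 library, and no replicate was left out for the same reason. The lists hold no peak heights, so how far a missing peak lay under the calling threshold is unknown, and at these depths neither the loss of IRF4 nor the absence of BATF at a site can be told apart from a peak that was not called.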
